A study of Mus musculus with 6 samples.

Results

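The miR-130/miR-301 and miR-148/miR-152 families are microRNAs that carry the run CAGUGCA at or near their 5′ end. Their members were taken by name, as every array name whose stem is miR-130a, miR-130b, miR-301a, miR-301b, miR-148a, miR-148b or miR-152, with both arms and including undetected names. This gave 9 of 690 miRNA names, 5 of the miR-130/miR-301 and 4 of the miR-148/miR-152 family. The names were miR-130a-3p, miR-130b-3p, miR-130b-5p, miR-301a-3p and miR-301b-3p, and miR-148a-3p, miR-148a-5p, miR-148b-3p and miR-152-3p. All cells came from transgenic SMA-GFP mice, in which GFP reports activity of the smooth muscle actin (SMA) gene, and were sorted as negative for CD45, carried by blood cells, and for CD31, carried by endothelium. The 3 skin preparations, numbered 1, 2 and 5, were cells with weak GFP from the dermis, described by the submitters as fibroblast-like. The 3 wound preparations, numbered 3, 4 and 6, were cells with strong GFP from wounds 7 days after injury, described as myofibroblasts, the contractile cells that lay down matrix during repair. Tissue, injury and GFP level changed together and cannot be told apart. The labels give no strain or age, and do not say that each preparation is from a different animal; p-values therefore cover variation among these 6 preparations, and some of that may be technical.

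A microRNA guides a silencing complex to messenger RNAs that pair with its seed, bases 2 to 8 from its 5′ end, and lowers their translation and stability. miR-130 and miR-301 are known as repressors of PPARG, a nuclear receptor that restrains fibroblast activation, and have been linked to stiffening of fibrotic lung and vessels. miR-148 and miR-152 are known to target DNA methyltransferases, Dnmt3b in the case of miR-148 and Dnmt1 in the case of miR-152, which tie them to DNA methylation.

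The mature 3p arms are shown because the 2 families are told apart by where the shared run sits. Capitals mark the seed; the sequences are those of RefSeq (table of build GRCm38.p6), which held 8 of the 9 members.
miR-130a-3p: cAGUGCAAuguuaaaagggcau
miR-130b-3p: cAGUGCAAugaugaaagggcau
miR-301a-3p: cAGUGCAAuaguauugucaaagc
miR-148a-3p: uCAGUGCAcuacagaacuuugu
miR-148b-3p: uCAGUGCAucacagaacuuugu
miR-152-3p: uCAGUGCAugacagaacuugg
The run CAGUGCA starts at base 1 in the miR-130/miR-301 arms and at base 2 in the miR-148/miR-152 arms, so the seeds are AGUGCAA and CAGUGCA, offset by 1 base. It occurred in 13 of the 534 array names with a RefSeq mature sequence (2.43%, searched on the miRNA strand only), 6 of them members. miR-130a-3p and miR-130b-3p differ at 2 of 22 positions, the first at base 11, and miR-130a-3p and miR-301a-3p at 10 of 22. In the other family miR-148a-3p and miR-148b-3p differ at 2 of 22 positions, the first at base 9. miR-148b-3p and miR-152-3p differ at 2 of 21, and miR-148a-3p and miR-152-3p at 3 of 21.

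The genes are dispersed. In the same reference, the genes of miR-130b and miR-301b lie 258 bases apart on chromosome 16, both within the span of 2610318N02Rik. The gene of miR-301a on chromosome 11 lies within Ska2, whose product acts at the kinetochore. The genes of miR-148b on chromosome 15 and miR-152 on chromosome 11 lie within Copz1 and Copz2, paralogs that encode a coatomer subunit of vesicle transport. The gene of miR-130a lies on chromosome 2 and that of miR-148a on chromosome 6.

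Values are background-subtracted intensities divided by each array's 75th percentile over probes well above background and taken to log2, with a floor at -5.30 for dim signals. That percentile was 1244 to 1772 intensity units on the skin arrays and 786 to 1136 on the wound arrays, without overlap. Readings before scaling therefore run lower on the wound arrays for a miRNA of equal scaled level. Between 187 and 233 names were well above background on an array. Log2 values of arrays of 1 group correlated at r = 0.985 to 0.992 across the 222 tested miRNAs, and those of different groups at 0.846 to 0.883. The number of arrays limits the precision. The deposited log2 table numbers its columns differently from the array titles. None of its 6 columns has the number of the array whose values it holds (0 of 6), and 4 carry the number of an array of the other group, so groups were taken from the titles of the scanner files. The median difference (wound minus skin) over all tested miRNAs was 0.38, and it moved by -0.57 to -0.38 with the other 4 scalings tried, so each member is also given relative to it. Tests are limma fits over the 222 miRNAs that were well above background on all arrays of at least 1 group, with Benjamini-Hochberg adjusted p-values. In bulk RNA of sorted cells, fewer cells that hold a miRNA and less of it per cell cannot be told apart.

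Of the 9 members 6 were tested, all of them 3p arms, and 5 of these were well above background on all 6 arrays. miR-130a-3p, miR-130b-3p, miR-301a-3p and miR-152-3p were higher in the wound cells in limma, beside 44.1% of all tested miRNAs called higher. No member was called lower (0 of 6, and 0 at an unadjusted p under 0.05 in limma), beside 20.7% of all tested miRNAs. In these 4 members the 3 wound values all lay above the 3 skin values, and 69.8% of the 222 tested miRNAs had groups without overlap, in either direction. With 64.9% of all tested miRNAs called in 1 direction or the other, these counts say nothing particular about the families. The median log2 difference was 0.56 over the 6 tested members. It was 0.85 over the 3 of the miR-130/miR-301 family and 0.27 over the 3 of the miR-148/miR-152 family. The calls of higher members depended on how arrays were scaled. Under the other 4 scalings 0 to 2 members were called higher and miR-148b-3p was called lower in each. Of all 222 tested miRNAs 52 to 70 were then called higher and 54 to 76 lower. miR-130b-3p entered the test through its wound arrays alone.

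**Figure D1:**
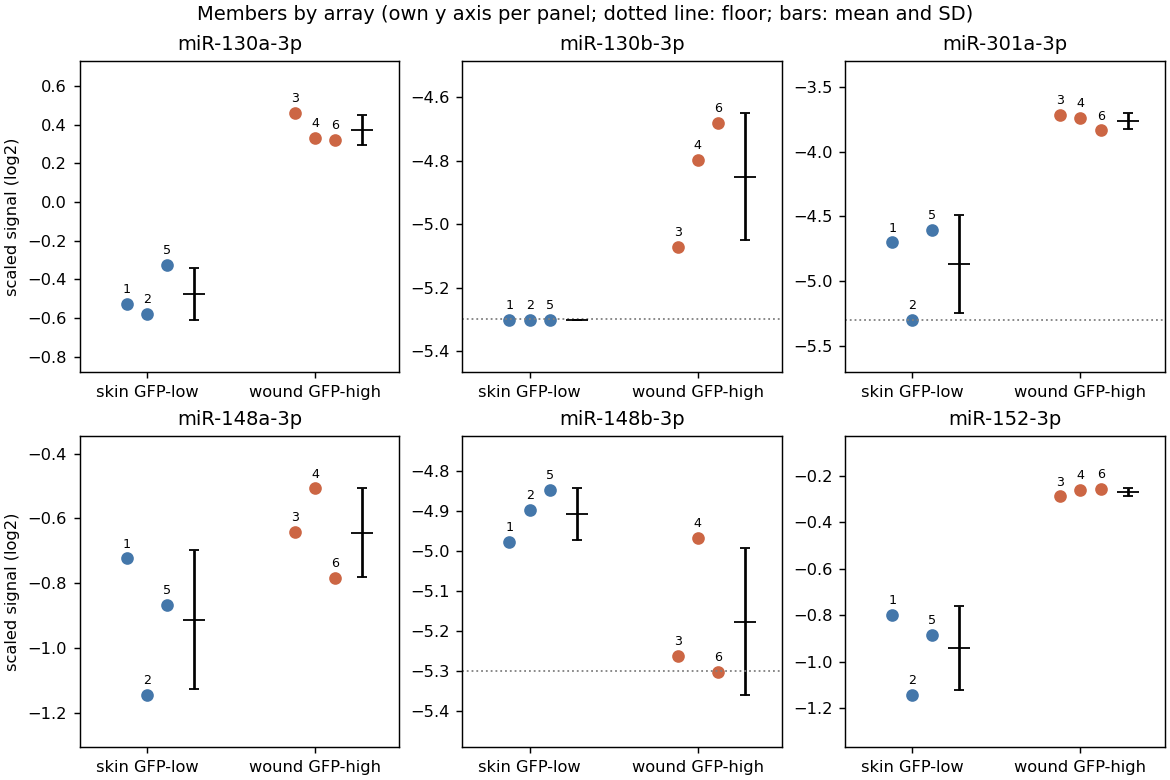
Scaled signal (log2, y axis with its own range in each panel) of the 6 tested members in the 3 skin GFP-low and 3 wound GFP-high preparations, each point 1 array labelled by its preparation number, with the group mean and SD beside the points. miR-130a-3p, miR-301a-3p and miR-152-3p are separated between groups, miR-130b-3p leaves the floor (dotted line) only in the wound cells, and miR-148a-3p and miR-148b-3p overlap.

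miR-130a-3p, a miRNA linked to PPARG repression, was at -0.53, -0.58 and -0.32 on the log2 scale in skin preparations 1, 2 and 5 and at 0.46, 0.33 and 0.32 in wound preparations 3, 4 and 6. Every wound value lay above every skin value. The means were -0.48 ± 0.13 (SD, n = 3) and 0.37 ± 0.08, a 1.80-fold difference (log2 0.85, SE 0.09, limma adjusted p = 0.000586). This exceeded the median difference over the tested miRNAs by 0.47. All 20 of its spots were well above background on every array, and its 2 probes gave differences of 0.83 and 0.86. The intensities before scaling overlapped: the brighter probe read 959 to 1725 on the skin arrays and 1284 to 1705 on the wound arrays.

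miR-130b-3p, which shares the seed and most of the body of miR-130a-3p, was detected in the wound cells only. On the skin arrays 0 of its 20 spots were well above background on each of the 3 arrays. On the wound arrays 9, 10 and 11 of 20 were, in preparations 3, 4 and 6. All of them but 1 belonged to the same probe of its 2. That probe read -0.53, -1.31 and -1.59 intensity units after background subtraction in skin preparations 1, 2 and 5, and 36.7, 58.5 and 60.6 in wound preparations 3, 4 and 6. These readings come before any scaling, and the groups did not overlap. miR-130a-3p, which differs at 2 positions, had all 20 spots well above background on the same skin arrays. The scanner's own detection call was positive on 0 of 3 skin and 3 of 3 wound arrays. Against the lowest signal that was well above background on each skin array (log2 -5.37, -5.29 and -5.77 in preparations 1, 2 and 5), the wound level was at least 2.27-fold higher on the brighter probe and at least 1.54-fold higher over both probes averaged. The fit uses 1 common floor of -5.30, which lies above the mean of those 3 limits, so its differences are smaller than these bounds. In the fit miR-130b-3p was at -4.85 ± 0.20 in wound against the floor in all 3 skin preparations, a log2 difference of 0.45 (SE 0.11, limma adjusted p = 0.0158). With no spread measured at the floor that SE is too small, and the call was lost without wound preparation 4 (adjusted p = 0.0565) or skin preparation 5 (adjusted p = 0.0511).

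miR-301a-3p, which also has the AGUGCAA seed, was at -4.70, -5.30 and -4.61 in skin preparations 1, 2 and 5, the second of these at the floor. It was at -3.71, -3.74 and -3.83 in wound preparations 3, 4 and 6. The groups did not overlap, and the skin values spread more than the wound values (-4.87 ± 0.38 against -3.76 ± 0.06, SD, n = 3). The difference was 1.11 (2.15-fold, SE 0.20, limma adjusted p = 0.00627), which exceeded the median over the tested miRNAs by 0.73. It rested on 1 of its 2 probes, well above background on all 6 arrays, which differed by 1.21. The other probe was well above background on 1 wound array. Before scaling the bright probe read 87.9, 43.7 and 117 in skin and 97.8, 132 and 128 in wound, so that the skin preparation with the highest reading lay above the wound preparation with the lowest.

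**Figure D2:**
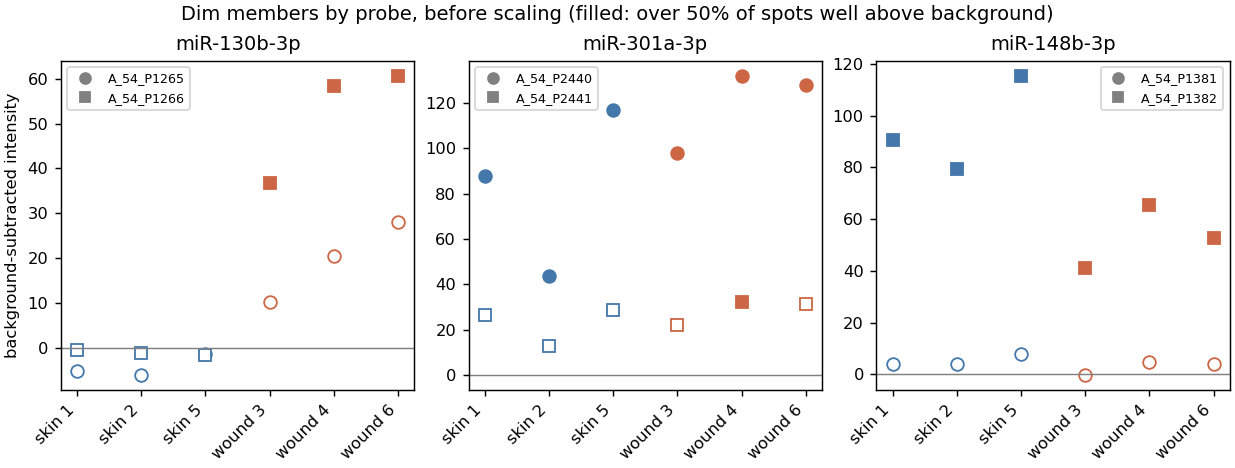
Background-subtracted intensity before scaling (linear y axis) of both probes of the dim members miR-130b-3p, miR-301a-3p and miR-148b-3p on each array; symbols tell the probes apart, blue is skin and orange is wound, and filled symbols mark over 50% of spots well above background. 1 probe of miR-130b-3p reads about 0 on the skin arrays and 36.7 to 60.6 on the wound arrays, while the informative probe of miR-148b-3p reads lower on every wound array than on every skin array. The wound arrays were dimmer as a whole.

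miR-301b-3p, encoded beside miR-130b, had 1 of 20 spots well above background in wound preparation 4 and 0 of 20 on each of the other arrays. miR-130b-5p, the other arm of the miR-130b precursor, had 0 of 20 spots well above background on each of the 6 arrays. Neither was tested. Thus of the neighbouring pair miR-130b and miR-301b, 1 arm was measurable here.

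Outside the members, 1 array name shared a 3p seed, miR-721, whose mature sequence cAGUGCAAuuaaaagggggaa differs from miR-130a-3p at 6 of the 21 positions compared. That count allows no gaps and can overstate the difference between the 2 sequences. miR-721 was at the floor in all 3 skin preparations and was at -4.13, -3.29 and -3.84 in wound preparations 3, 4 and 6. Its wound level of -3.75 ± 0.42 was at least 3.30-fold above the limits of the single skin arrays given for miR-130b-3p. In the fit, against the common floor, the log2 difference was 1.55 (SE 0.22, limma adjusted p = 0.00256), and it was called higher under 5 of 5 scalings. Like miR-130b-3p, it entered the test through its wound arrays alone and could only come out higher.

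miR-152-3p, the member with the Dnmt1 link, was at -0.80, -1.14 and -0.88 in skin preparations 1, 2 and 5 and at -0.29, -0.26 and -0.26 in wound preparations 3, 4 and 6. The 3 wound values were nearly equal and all lay above the skin values. The means were -0.94 ± 0.18 and -0.27 ± 0.02 (SD, n = 3), a 1.59-fold difference (log2 0.67, SE 0.10, limma adjusted p = 0.00266), exceeding the overall median by 0.29. Its 2 probes differed by 0.68 and 0.67, and all 20 spots were well above background on each array. Unscaled, the brighter probe read 694 to 1197 in skin and 796 to 1165 in wound.

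miR-148a-3p was at -0.72, -1.15 and -0.87 in skin preparations 1, 2 and 5 and at -0.64, -0.51 and -0.78 in wound preparations 3, 4 and 6. The groups overlapped, since wound preparation 6 lay below skin preparation 1. The means of -0.91 ± 0.21 and -0.64 ± 0.14 differed by 0.27 (SE 0.14, limma adjusted p = 0.140), which did not pass the test and was close to the overall median of 0.38. Its other arm, miR-148a-5p, had 0 of 20 spots well above background on each of the 6 arrays.

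miR-148b-3p was at -4.98, -4.90 and -4.85 in skin preparations 1, 2 and 5 and at -5.26, -4.97 and -5.30 in wound preparations 3, 4 and 6, the last at the floor. Wound preparation 4 lay just above skin preparation 1, so the groups overlapped. The difference was -0.27 (SE 0.11, limma adjusted p = 0.0751) and did not pass under the main scaling, but relative to the overall median it was at -0.65. Only 1 of its 2 probes was well above background, on all 6 arrays, and the other read near 0 throughout. The informative probe read 90.6, 79.5 and 115 intensity units in skin preparations 1, 2 and 5 and 41.3, 65.4 and 52.6 in wound preparations 3, 4 and 6. On that probe every wound reading lay below every skin reading, both before scaling and after it (-4.25 ± 0.18 against -3.98 ± 0.05 on the log2 scale, SD, n = 3). The separation before scaling includes the lower brightness of the wound arrays as a whole.

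**Figure D3:**
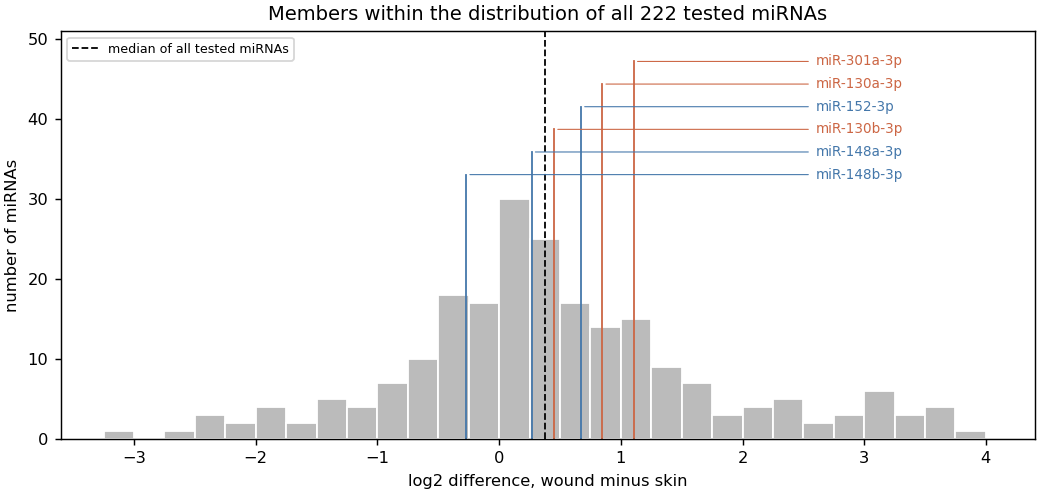
Histogram of the log2 difference (wound minus skin, x axis) of all 222 tested miRNAs (y axis, number of miRNAs), with vertical lines at the 6 tested members, orange for miR-130/miR-301 and blue for miR-148/miR-152, and a dashed line at the median of 0.38. The members lie between -0.27 and 1.11, miR-301a-3p as the 57th highest difference and miR-148b-3p as the 167th.

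Across the main and 4 other scalings miR-130a-3p differed by 0.16 to 0.90, exceeded the overall median in 5 of 5 and was called higher in 3. Except for quantile normalization, these scalings change 1 factor per array, which shifts a member and the median in the same direction. Counts relative to the median are therefore not independent results. The shifts were less alike for miR-130b-3p, at the floor in skin, which exceeded the median by 0.07 to 0.35 over the 5 scalings. miR-301a-3p differed by 0.46 to 1.11 and miR-130b-3p by 0.13 to 0.45; both were above the median in 5 of 5 and called in 1. The size for miR-130b-3p was set by the floor and the choice of probe or signal: it was 0 with a floor 4 times as high, 1.01 with the brightest probe, 2.45 with a floor 4 times as low and 2.75 with total signals. miR-152-3p differed by -0.01 to 0.67, was called higher in 2 and lay above the median in 5 of 5. For miR-148a-3p the sign turned: it differed by -0.42 to 0.27 and was called in 0 of 5. miR-148b-3p differed by -0.66 to -0.27, lay below the median in 5 of 5 and was called lower in 4. Without any scaling, where the lower brightness of the wound arrays stays in, it differed by -0.59 (SE 0.16, limma adjusted p = 0.0349). Background correction by normexp turned its sign (1.40, not passing), with a median of all tested miRNAs of 1.33.

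**Figure D4:**
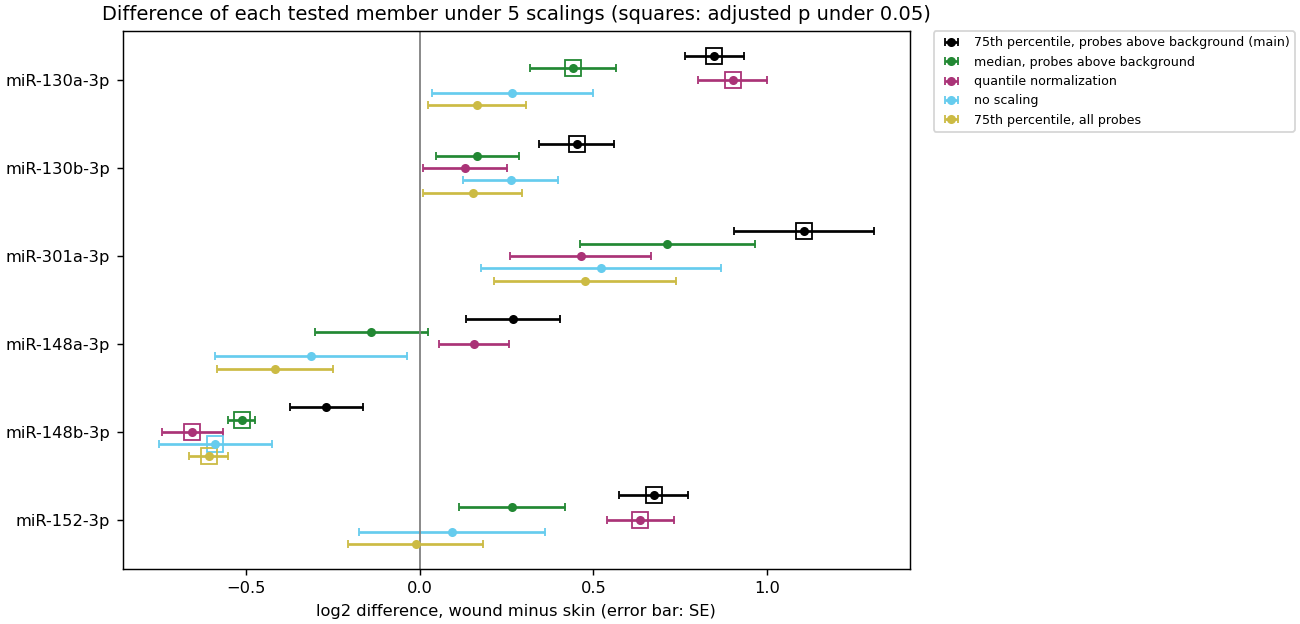
Log2 difference (wound minus skin, x axis, error bars are the limma SE) of each tested member under the main scaling and 4 alternatives, with squares around values at an adjusted p under 0.05. Values of miR-130a-3p, miR-130b-3p and miR-301a-3p stay above 0 and those of miR-148b-3p below 0 in all 5, while miR-148a-3p lies on both sides and miR-152-3p ranges from -0.01 to 0.67.

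Ratios of family members within an array do not depend on the array's scale where both lie above the floor. The 6 pairs of tested members within a family were compared by exact two-sided permutation tests over the 6 arrays, which cannot go below p = 0.1 with 3 against 3. miR-148a-3p and miR-152-3p are both bright, and neither touched the floor. On the log2 scale the ratio of miR-148a-3p to miR-152-3p was 0.07, -0.00 and 0.02 in skin preparations 1, 2 and 5. It was -0.35, -0.25 and -0.53 in wound preparations 3, 4 and 6. The wound ratios all lay below the skin ratios, and the change of miR-148a-3p was 0.41 below that of miR-152-3p (-0.41, exact permutation p = 0.1, 0.12 adjusted over the 6 pairs). This difference was -0.48 to -0.23 over 10 alternatives that take groups from the array titles, and -0.47 to -0.33 with any 1 array left out. A scaling by 1 factor per array or another floor cannot change it here. With total signals and the deposited table matched by values it was also -0.41. Those that moved it were quantile normalization (-0.48), the brightest probe (-0.44) and normexp (-0.23). The ratio of miR-148b-3p to miR-152-3p differed by -0.94 (exact permutation p = 0.1, adjusted 0.12, groups not overlapping), with 1 wound value of miR-148b-3p at the floor. The change of miR-148a-3p was 0.54 above that of miR-148b-3p (exact permutation p = 0.1, adjusted 0.12, groups not overlapping). Both ratios with miR-148b-3p, which lies near the floor, moved with the scaling and the floor. The 0.54 became 0.19 with the percentile of all probes (exact permutation p = 0.4) and 0.27 with a floor 4 times as high (exact permutation p = 0.2). The -0.94 became -0.60 and -0.67 in these 2 settings.

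In the miR-130/miR-301 family the change of miR-130a-3p was 0.26 below that of miR-301a-3p (-0.26, exact permutation p = 0.2, adjusted 0.2), and the 2 groups of ratios overlapped. Ratios with miR-130b-3p depended on the floor. The change of miR-130b-3p minus that of miR-301a-3p was -0.66 (exact permutation p = 0.1, adjusted 0.12) in the main setting and 1.29 with a floor 4 times as low. The change of miR-130a-3p minus that of miR-130b-3p was 0.40 (exact permutation p = 0.1, adjusted 0.12) and -1.60 with a floor 4 times as low. Across the families, in comparisons chosen after the values were seen and not tested, the ratio of miR-130a-3p to miR-148a-3p went from 0.44 ± 0.21 to 1.02 ± 0.15 (SD, n = 3) without overlap. That of miR-130a-3p to miR-152-3p went from 0.47 ± 0.17 to 0.64 ± 0.10. Of the 3 bright members, the differences were thus 0.85 for miR-130a-3p, 0.67 for miR-152-3p and 0.27 for miR-148a-3p.

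**Figure D5:**
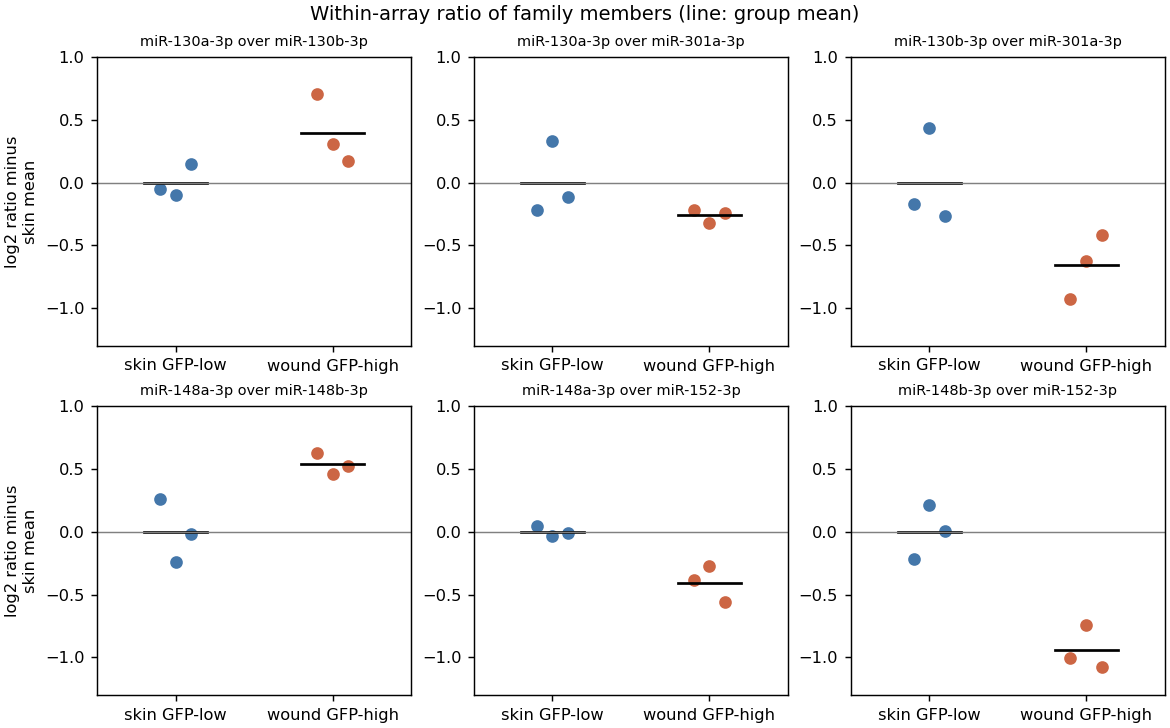
Log2 ratio of 2 members of a family within each array, minus the mean ratio of the skin arrays (y axis), for the 6 pairs; points are arrays and lines are group means. The ratio of miR-148a-3p to miR-152-3p is 0.41 lower in the wound cells and that of miR-148b-3p to miR-152-3p 0.94 lower, both without overlap, while that of miR-130a-3p to miR-301a-3p overlaps.

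Position on the slide was not balanced between groups, with 2 skin and 1 wound array in the first row and 1 skin and 2 wound arrays in the other. Within rows 1 and 2 the difference was 1.01 and 0.65 for miR-130a-3p, 1.29 and 0.82 for miR-301a-3p, 0.68 and 0.63 for miR-152-3p and 0.23 and 0.56 for miR-130b-3p. With the row as a block the 4 calls stood (limma adjusted p = 0.00335, 0.0194, 0.0106 and 0.0278, in that order). For miR-130b-3p this adds little. It entered the test through its wound arrays alone, with all skin values at the floor, so it could only come out higher and its SE is again too small.

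Other miRNAs reported to target DNA methyltransferases, were taken as a list of names without the members. Of 15 names on the array 10 were tested, 6 were lower, 1 was higher and 3 did not pass, with a median difference of -0.49 beside 0.38 over all tested miRNAs. Under the 5 scalings 6 to 8 were lower and 1 higher. Beside these counts and those of the next list, 20.7% of all tested miRNAs were called lower and 44.1% higher in the main setting. The lower ones included the miR-29 family, which targets Dnmt3a and Dnmt3b as well as collagens: miR-29a-3p differed by -1.75 (limma adjusted p = 1.8e-05) and miR-29c-3p by -2.29 (adjusted p = 0.000147). The 1 higher was miR-143-3p (1.24, adjusted p = 2.7e-05), a smooth muscle miRNA. Of 36 names linked to fibrosis or TGF-beta signalling 19 were tested. Of these 5 were higher, 9 lower and 5 did not pass, with a median of -0.07 (2 to 5 higher and 9 to 11 lower under the 5 scalings). Of the higher ones miR-433-3p, miR-155-5p and miR-145a-5p entered the test through their wound arrays alone, which favours a higher result. miR-21a-3p entered in the same way and did not pass. The miR-29 family is in both lists, so their counts of lower names overlap. miR-21a-5p, the best known of these, differed by 2.24 (adjusted p = 2.9e-05) and miR-26b-5p by -1.75 (adjusted p = 5.7e-06).

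Markers of other cells were mostly not well above background. Of 12 names of keratinocyte miRNAs 10 were well above background on no array. The other 2, miR-203-3p (-1.45, limma adjusted p = 0.00435) and miR-205-5p (-0.92, adjusted p = 0.0278), were so on 3 of 3 skin and 0 of 3 wound arrays. Both entered the test through their skin arrays alone and could only come out lower. Their wound values were all at the floor, where no spread is measured, so the SE is too small. The summed level of the list, relative to each array's 75th percentile, was 0.120 to 0.204 in skin and 0.00513 to 0.0092 in wound. Of 7 blood cell names 6 were well above background on no array, among them both arms of miR-142, and miR-451a was so on 2 skin arrays, with sums of 0.016 to 0.0321 in skin and 0.0272 to 0.0356 in wound. Of 8 names of striated muscle miRNAs none was well above background on any array (sums 0.0179 to 0.0285 and 0.0266 to 0.0307). Of 2 endothelial names miR-126-3p was well above background on all 6 arrays (0.50, adjusted p = 0.109, turning sign with scaling), with list sums of 0.0363 to 0.0583 in skin and 0.0555 to 0.0773 in wound. Mesenchymal and smooth muscle miRNAs were measured, with 6 of 8 names well above background on all arrays and sums of 20.3 to 24.2 in skin and 15.7 to 17.4 in wound. They did not move together. Of 7 tested, 2 were higher, miR-143-3p (1.24) and miR-145a-5p (0.65), 2 were lower and 3 did not pass. The lower ones included miR-199b-5p (-0.75, limma adjusted p = 0.0072). Under the 5 scalings 1 to 3 were higher and 2 to 3 lower. Of all tested miRNAs 44.1% were called higher and 20.7% lower in the main setting. The part of keratinocytes, and of the other cells, in the members' differences was not tested.

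The profiles most like 1 tested member of each family were sought among the other tested miRNAs by the root mean square difference of log2 values over the 6 arrays, each miRNA centred on its own mean. Both reference members are those of highest mean signal in their family. For miR-130a-3p they were miR-19b-3p (0.07), miR-455-5p (0.10) and miR-543-3p (0.10), against a median of 0.51 over all tested miRNAs outside the families. For miR-152-3p they were miR-532-5p (0.10), miR-543-3p (0.12) and miR-425-5p (0.12), against a median of 0.48. The differences of miR-19b-3p, miR-532-5p and miR-425-5p between the groups were 0.78, 0.71 and 0.68. miR-455-5p and miR-543-3p had 1 and the same value on all 3 skin arrays, the floor. miR-425-5p had the floor value in skin preparations 1 and 5, so its difference is limited by the floor as well.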

How the data were processed

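RNA of 6 preparations was hybridised to 1-colour Agilent miRNA arrays on 1 slide. The deposited scanner files, made with Agilent Feature Extraction 10.7.3.1 per the file headers, hold spot intensity, background-subtracted and not normalized between arrays. A log2 table deposited by the authors was used as an alternative; the series' design text names GeneSpring and gives no steps. Spots without outlier flags were averaged per probe (1928 probes), scaled to each array's 75th percentile among probes well above background on all arrays (over 50% of spots flagged so), averaged per miRNA, raised to a floor of 0.0253 and taken to log2. Groups were compared with limma 3.58.1 in R 4.3.3 (lmFit, eBayes), adjusted over 222 miRNAs at 0.05; the fit was tested on simulated data. Alternatives covered scaling, background (normexp on median signals), signal column, probe summary, floor, filter, test, slide row, each array and the deposited table. The members and lists were chosen with earlier results of these data known. The named miRNAs are all members, array names sharing a member's seed and the 3 smallest p-values of each list. The 3 profiles most like the tested member of highest mean signal in each family are also named. Single list names are given for their detection or for how they entered the test.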

Additional observations from a re-analysis of the deposited data

How the results depend on the processing

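Members called higher numbered 4 in the main setting, 0 with the 75th percentile of all probes, with no scaling and with normexp, 1 with median scaling, 2 with quantile normalization, with the floor raised 4 times and with the deposited table matched by values, and 3 to 4 with any 1 array left out. Members called lower numbered 0 in the main setting and 1, miR-148b-3p, under each of the other 4 scalings, with total signals, with array weights, with the deposited table matched by values and without wound preparation 4 (0 to 1 over left-out arrays). Over all tested miRNAs 98 were called higher and 46 lower. The higher ones numbered 52 with the percentile of all probes, 54 without scaling, 44 with the higher floor, 17 with normexp and 59 when only the 156 names measured on every array were kept, a smaller set (86 to 95 over left-out arrays). The lower ones numbered 76 with the percentile of all probes, 66 with the median, 67 with quantile normalization, 54 without scaling and 5 with normexp (40 to 47 over left-out arrays). Higher calls were 68.1% of all calls in the main setting and 40.6%, 50.0%, 51.1% and 50.0% with the percentile of all probes, the median, quantile normalization and no scaling.

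Directions turned for miR-148a-3p (-0.42 with the percentile of all probes, -0.14 with the median, -0.31 without scaling and -0.18 in the deposited table matched by values), for miR-152-3p (-0.012 with the percentile of all probes) and for miR-148b-3p (1.40 with normexp). With columns of the deposited table taken by their numbers, which mix the groups of the array titles, limma called 0 of 202 miRNAs higher and 0 lower (1 at an unadjusted p under 0.05). miR-130a-3p was then at -0.011, miR-130b-3p at -2.78 and miR-148b-3p at 0.20, and the changes of miR-148a-3p and miR-148b-3p minus that of miR-152-3p at 0.055 and 0.040. The change of miR-130a-3p minus that of miR-130b-3p turned to -2.15 with total signals, -0.15 with the brightest probe, -1.60 with the lower floor, -8.26 in the table matched by values and -1.24 with normexp. The change of miR-130b-3p minus that of miR-301a-3p, -0.66 in the main setting, turned to 1.72, 1.29, 7.82 and 0.34 with total signals, the lower floor, the table matched by values and normexp. The change of miR-130a-3p minus that of miR-301a-3p turned to 0.44 with quantile normalization and 0.85 with the higher floor, where miR-301a-3p lies at the floor. With normexp the change of miR-148a-3p minus that of miR-148b-3p was -0.97 (0.54 in the main setting) and that of miR-148b-3p minus miR-152-3p 0.74. Where the floor was not the setting changed, the cause was not tested. The table matched by values and single probes were added after the data were seen. No paired analysis was possible because the groups share no replicate numbers. Signals near the floor limit miR-130b-3p, miR-301a-3p and miR-148b-3p.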
